A study of Mus musculus with 6 samples.

Results

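The genes described here are 10 markers of macrophage identity and uptake, *Adgre1*, *Cd14*, *Mrc1*, *Lyz2*, *Fcgr1*, *Mertk*, *Msr1*, *Cd36*, *C1qa* and *C1qb*, chosen by symbol from a table of 22601 genes. All 10 were listed once, and all 10 passed the filter on low counts as did 13483 genes in all. They were measured by RNAseq, in which fragments of RNA are sequenced and counted by gene, in 3 WT and 3 *Slc37a2* KO libraries. The labels describe the cells as osteoclasts formed from bone marrow macrophages during 5 days with RANKL (10 ng/ml) and M-CSF (2 ng/ml), the cytokines that drive osteoclast formation and macrophage survival. The paper's results likewise place its RNAseq in osteoclasts, while its RNAseq methods describe RNA from whole femurs and tibias. Both groups were on the C57BL/6N background. The KO animals carried the gene-trap allele *Slc37a2* tm2a(KOMP)Wtsi, from 1 embryonic stem cell clone, in every cell and not in osteoclasts alone. Each library heading holds a code, read here as an animal number, the letter F, read here as female, and an age of 11 weeks. Libraries are named here by that code. WT libraries are K090, L080 and L082, and KO libraries are K089, L078 and L081.

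Macrophages and osteoclasts descend from the same myeloid precursor. Under RANKL, precursors fuse and switch on the genes of bone resorption, while many genes of the mature macrophage are turned down. Macrophage receptors bind microbes, antibody-coated particles, modified lipoproteins and dying cells and carry them to lysosomes. Complement C1q, which macrophages secrete, coats such targets and marks them for uptake. Fewer macrophages and less macrophage RNA per cell cannot be told apart in bulk libraries.

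Levels below are CPM, counts divided by library size, after scaling by the TMM method of edgeR, which corrects library size for differences in composition. They are called scaled CPM. Library totals ran from 27552183 to 42522292 counts, with TMM factors from 0.9311 to 1.06. The closest pair of libraries (K089 and L081) still differed beyond counting noise (chi-square over degrees of freedom 7.04). Each library was counted as 1 sample, but that value does not show whether the libraries came from separate cultures. In WT, *Slc37a2* itself had a mean of 2149 ± 292 scaled CPM, and in KO the mean was 38.1 ± 6.66 (SD, n = 3 each), and every library matched its label. The defining osteoclast genes *Acp5*, *Ctsk* and *Mmp9* were present, and a list of 10 summed to levels from 38340 to 75628 scaled CPM. Sums of red cell, B cell, T and NK cell and neutrophil genes reached at most 0.0707, 0.270, 0.0980 and 1.41 scaled CPM. Those of dendritic and stromal genes ran from 5.14 to 7.68 and from 578 to 1662.

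The stretch around the members' transcription starts was read from RefSeq (GRCm38.p6), which holds a 300-base window for 6 of the 10 genes. A transcript start annotated by GENCODE M21 lies inside the window for *Mrc1*, *Lyz2*, *Fcgr1*, *Mertk* and *C1qb*. For *Cd36* none of its 6 annotated transcripts starts inside the window, and the nearest start is 130 bases outside it. Shown are the windows of the 3 genes with both a PU box (GAGGAA) and an ETS core (GGAAGT), the letters bound by PU.1, the transcription factor of the myeloid lineage, and its relatives. *Mrc1* starts in the window chr2:14229164-14229463 on the plus strand. *Fcgr1* starts in chr3:96293920-96294219 and *C1qb* in chr4:136886151-136886450, both on the minus strand. Each is printed 5′ to 3′ on the gene's strand, with 250 bases before the start and 50 after, and capitals mark the PU box, the ETS core and the interferon-gamma activated site (GAS, TTCNNNGAA) on either strand.
Mrc1: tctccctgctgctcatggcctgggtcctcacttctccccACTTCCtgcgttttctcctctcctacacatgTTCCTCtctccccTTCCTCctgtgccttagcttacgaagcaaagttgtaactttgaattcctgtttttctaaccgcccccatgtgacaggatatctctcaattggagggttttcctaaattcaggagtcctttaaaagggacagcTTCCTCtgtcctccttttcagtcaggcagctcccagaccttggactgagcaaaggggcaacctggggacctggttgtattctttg
Fcgr1: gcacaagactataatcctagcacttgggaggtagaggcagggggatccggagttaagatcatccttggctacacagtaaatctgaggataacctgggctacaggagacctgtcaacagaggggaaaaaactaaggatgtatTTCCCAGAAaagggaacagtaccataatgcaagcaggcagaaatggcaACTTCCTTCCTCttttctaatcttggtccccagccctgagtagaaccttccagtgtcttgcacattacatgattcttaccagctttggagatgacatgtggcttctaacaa
C1qb: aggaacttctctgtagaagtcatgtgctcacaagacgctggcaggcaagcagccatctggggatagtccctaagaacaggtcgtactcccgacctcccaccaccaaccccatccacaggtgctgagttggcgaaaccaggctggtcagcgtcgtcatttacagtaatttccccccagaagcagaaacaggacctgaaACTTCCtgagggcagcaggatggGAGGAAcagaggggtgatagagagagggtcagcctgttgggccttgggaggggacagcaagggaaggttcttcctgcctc
In *Fcgr1* the ETS core (position −61 relative to the start) is followed directly by the PU box (−55), both on the opposite strand, and the GAS, TTCCCAGAA, begins at −109. *Mrc1* holds 3 PU boxes, and *C1qb* 1, at −30.

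A set of 10 motifs was searched on both strands in the 6 windows and in all 32851 windows of the table. The ETS core was in 5 of the 6, in *Mrc1*, *Lyz2*, *Fcgr1*, *Cd36* and *C1qb*, against 23.8% of all windows, where the *Cd36* window holds no GENCODE start. The PU box was in 3 of 6 (28.3% of all), the E box CANGTG in 4 of 6 (44.9%) and the GAS in 1 of 6 (8.30%). The long PU.1 site GAGGAAGT, which contains both shorter motifs, was in 0 of 6 (3.20% of all). Likewise 0 of 6 held the AP-1 site TGANTCA (7.81%), the MAF site TGCTGAC (4.67%), the interferon regulatory repeat GAAANNGAA (8.56%), the C/EBP site TTGCNNAA (10.8%) or the TATA box TATAAA (13.6%). These are matches of letters in a short window and were not tested against binding or against the levels of the genes.

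To compare levels between genes, scaled CPM was divided by the length of all annotated exons (GENCODE M21, GRCm38). The annotation used for counting is not given in the sources used here, so these lengths approximate the counted ones. *Lyz2*, which encodes the lysozyme of macrophages, stood first with a mean of 1936 scaled CPM per kilobase over the 6 libraries. *C1qb* (147) and *C1qa* (83.5) came next, followed by *Adgre1* (55.9), *Cd36* (28.8), *Msr1* (25.0), *Cd14* (20), *Mrc1* (8.40), *Mertk* (3.78) and *Fcgr1* (1.64). This order held in 6 of 6 libraries for 6 of the 9 neighbouring pairs. It held in 4 of 6 for *C1qa* over *Adgre1*, for *Cd36* over *Msr1* and for *Msr1* over *Cd14*. *Lyz2* alone made up between 74.8% and 78.5% of the summed scaled CPM of the 10 genes.

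The 10 genes divided the libraries in one way that did not follow genotype. Their summed level was 5676, 4625 and 1650 scaled CPM in WT libraries K090, L080 and L082, and 1307, 5033 and 1784 in KO libraries K089, L078 and L081. Thus K090, L080 and L078 lay high and L082, K089 and L081 low, with 2 high libraries in WT and 1 in KO. For 10 of 10 members the 3 highest libraries were the same, K090, L080 and L078. The same 3 were highest for 22.6% of all tested genes, and the other 3 libraries were highest for 20.8%. Without *Lyz2* the sum still ran from 285 to 1388.

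**Figure D1:**
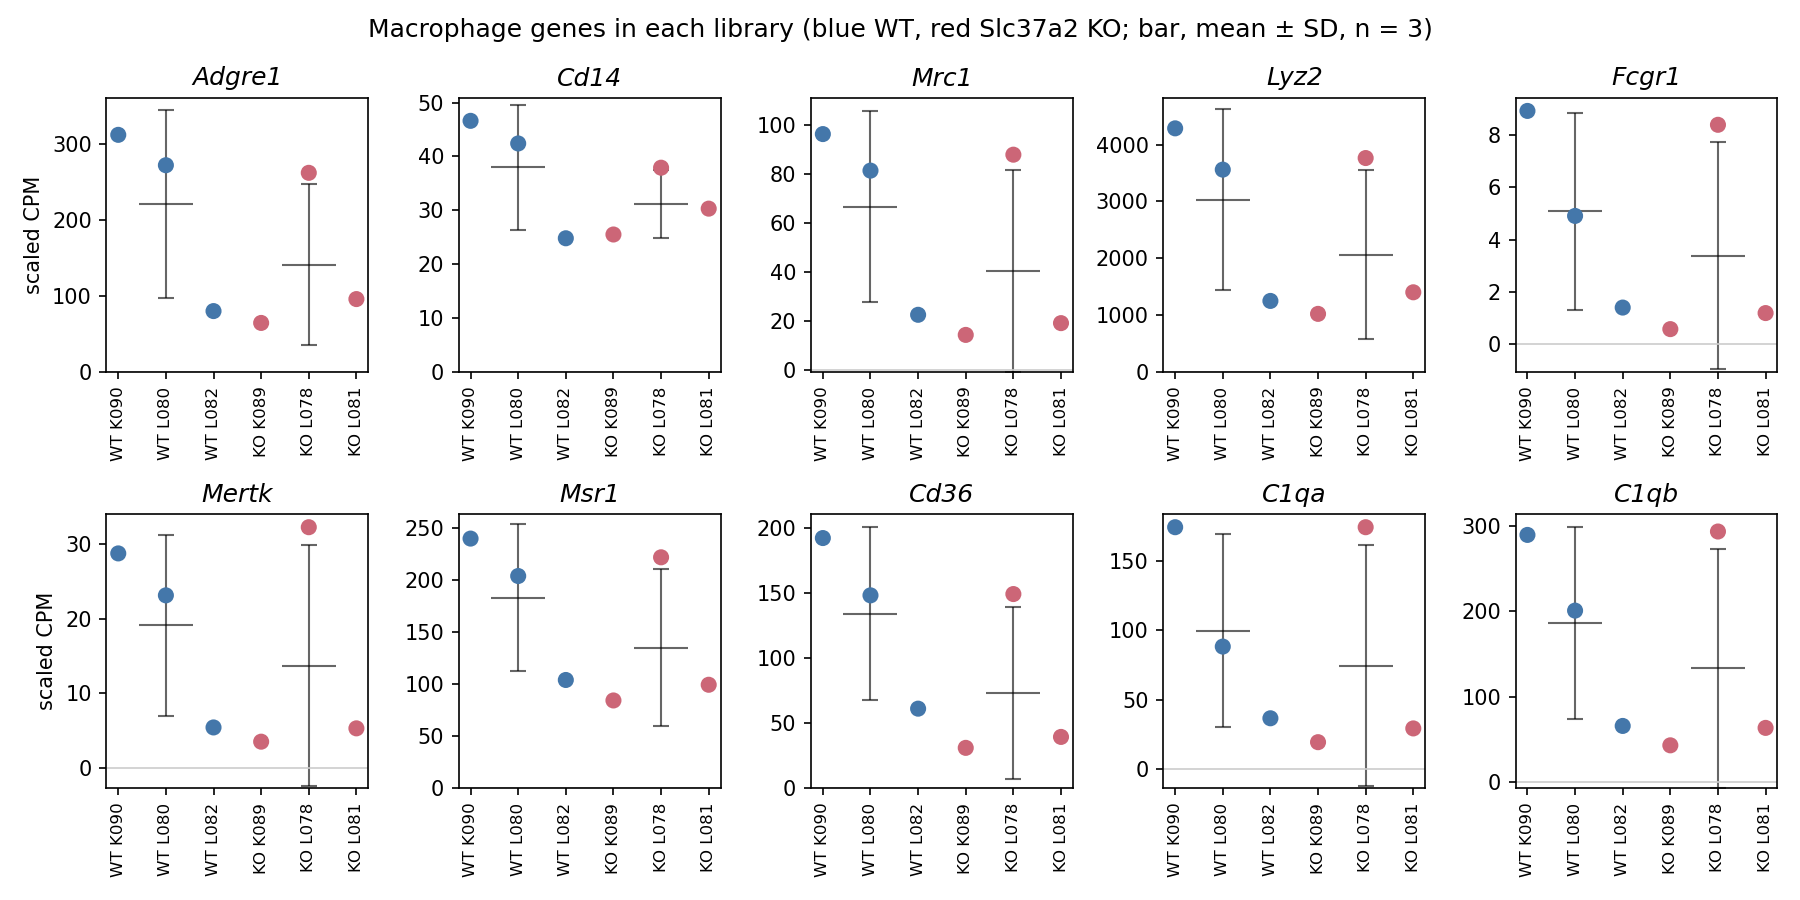
Scaled CPM (vertical axis, linear, 1 panel per gene) in the 3 WT (blue) and 3 KO (red) libraries, with a black bar for the mean ± SD of each genotype (n = 3). In every panel WT K090, WT L080 and KO L078 are the 3 highest libraries, and WT L082, KO K089 and KO L081 the 3 lowest. The genotypes therefore overlap for all 10 genes.

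*Adgre1* encodes F4/80, the surface receptor by which mouse macrophages are usually recognised. It was at 312, 272 and 80 scaled CPM in WT libraries K090, L080 and L082, and at 64.4, 262 and 95.8 in KO libraries K089, L078 and L081. The WT library L082 was thus nearer to the KO libraries K089 and L081 than to its own genotype. The log2 fold change of KO over WT was −0.65 (standard error 0.67, 95% confidence interval −2.26 to 0.96).
*Lyz2*, whose product breaks bacterial cell walls, had 4288, 3561 and 1249 scaled CPM in WT and 1021, 3765 and 1401 in KO, in the same order of animals. Its log2 fold change was −0.56 (standard error 0.62, interval −2.06 to 0.95). *Adgre1* and *Lyz2* kept nearly one proportion, with 0.0631 to 0.0763 scaled CPM of *Adgre1* for each of *Lyz2*, while they varied 4.84-fold and 4.20-fold over the libraries. *Lyz2* lies beside its near copy *Lyz1*, the pair spanning chr10:117277331-117292868. Their annotated transcripts are identical at 96.0% of 1262 aligned bases, with a longest identical stretch of 118, so reads may be divided between them. *Lyz1* took 0.0448% to 0.0565% of the level of the pair.

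*Cd14*, the co-receptor that hands bacterial lipopolysaccharide to TLR4, varied least. Its levels were 46.6, 42.4 and 24.8 scaled CPM in WT and 25.5, 37.9 and 30.3 in KO, a span of 1.88-fold. The highest and lowest libraries were both WT, and the KO libraries lay between them. The log2 fold change was −0.28 (standard error 0.26, interval −0.91 to 0.35). This was the 1 member of 10 whose interval lay inside −1.5 to 1.5, the limit on fold change used in the paper, against 90.8% of all tested genes. *Tlr4* had a log2 fold change of −0.24 (standard error 0.13) with means of 56.3 ± 7.09 (WT) and 47.7 ± 6.51 (KO) scaled CPM (SD, n = 3 each).

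*Mrc1* encodes the mannose receptor CD206, a C-type lectin that takes up glycoproteins and microbes. Its levels were 96.2, 81.3 and 22.5 scaled CPM in WT and 14.3, 87.8 and 19.1 in KO. KO library L078 exceeded WT library L080, and WT library L082 lay just above KO library L081. The log2 fold change was −0.72 (standard error 0.82, interval −2.69 to 1.26). *Mrc2*, the related receptor for collagen, ranked the libraries differently, at 10.5, 15.4 and 23.6 scaled CPM in WT and 10.0, 27.0 and 7.67 in KO.

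*Msr1* and *Cd36* are scavenger receptors, which bind modified lipoproteins, lipids and cell remnants. *Msr1* was at 240, 204 and 104 scaled CPM in WT and 84.3, 222 and 99.4 in KO, with a log2 fold change of −0.43 (standard error 0.45, interval −1.53 to 0.67). *Cd36* was at 192, 148 and 61.0 scaled CPM in WT and 30.9, 149 and 39.3 in KO. Its estimate was the lowest of the 10, −0.86 (standard error 0.69, interval −2.54 to 0.81). For *Cd36* the low WT library, L082, stood above both low KO libraries, yet L078 again lay among the WT values.
*Marco*, another scavenger receptor of macrophages, followed the members at 16.2, 10.7 and 3.34 scaled CPM in WT and 2.75, 20.6 and 2.90 in KO. *Scarb1*, the receptor for high-density lipoprotein and the most abundant tested scavenger gene of the wider list, spanned only 1.15-fold.

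*Fcgr1*, the high-affinity receptor for IgG, was the least abundant and the most variable member. Its counts were 364, 139 and 44 in K090, L080 and L082 (WT) and 16, 378 and 34 in K089, L078 and L081 (KO). These came to 8.92, 4.91 and 1.41 scaled CPM in WT and 0.587, 8.39 and 1.20 in KO, a 15.2-fold span. K090 (WT) was highest and K089 (KO) lowest, and L078 (KO) stood above L080 (WT). The log2 fold change was −0.56 (standard error 1.05, interval −3.09 to 1.97). The other Fc receptors shared the pattern over smaller spans: *Fcgr3* 6.09-fold, *Fcgr4* 4.22-fold and the inhibitory *Fcgr2b* 2.63-fold.

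*Mertk* is a receptor tyrosine kinase that recognises dying cells through bridging proteins. It was at 28.7, 23.1 and 5.46 scaled CPM in WT and 3.56, 32.2 and 5.34 in KO, so the highest library of all was KO L078. Its log2 fold change was −0.47 (standard error 0.95, interval −2.75 to 1.82). The close relatives of *Mertk* did not rank the libraries in this way. *Axl* was at 32.8, 66.3 and 79.0 scaled CPM in WT and 27.2, 77.4 and 24.8 in KO, and the ratio of *Mertk* to *Axl* ranged from 0.0691 (L082) to 0.877 (K090). *Axl*, *Tyro3* and *Mrc2* were each highest in L078, L082 and L080, which also had the highest sums of 6 stromal genes (1662, 1470 and 1109 scaled CPM, against 750, 649 and 578 in K090, K089 and L081). Nearly all of that sum came from the collagen genes *Col1a1*, *Col1a2* and *Col3a1*. *Dcn* ranked the libraries differently, highest in K090 (3.11 scaled CPM) and at 1.48 in L080. *Lum* and *Bglap* reached at most 0.0707 scaled CPM. The part of stromal RNA in these levels was not tested.

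*C1qa* and *C1qb* encode chains of C1q, which joins 3 kinds of chain into 1 complex. The genes lie with *C1qc* within chr4:136880129-136898803, on the minus strand. *C1qa* was at 174, 88.1 and 36.5 scaled CPM in WT and 19.3, 174 and 29.2 in KO (log2 fold change −0.42, standard error 0.93, interval −2.67 to 1.83). *C1qb* was at 290, 201 and 65.4 scaled CPM in WT and 42.6, 294 and 63.1 in KO (log2 fold change −0.47, standard error 0.84, interval −2.50 to 1.55). KO library L078 lay at the level of WT library K090 in both, and KO library K089 was the lowest in both. Within each library the chains kept a narrow proportion, with *C1qa* at 0.438 to 0.600 of *C1qb* and *C1qc* at 0.671 to 0.757 of *C1qb*.

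Taken over genotype, 0 of the 10 members were called at an adjusted p below 0.05 in edgeR's quasi-likelihood test, where 0.00742% of the 13483 tested genes (1 gene, *Slc37a2*) were called. Each member had an adjusted p of 0.969 in edgeR with Benjamini-Hochberg adjustment. At an unadjusted p below 0.05 in the quasi-likelihood test the count was also 0 of 10, beside 96 of all 13483 tested genes. With so few genes below that p, 0 of 10 does not set the members apart. It was 0 of 10 in edgeR's likelihood ratio test and in DESeq2 too. For 0 of 10 members did the 3 KO libraries lie clear of the 3 WT libraries on one side, against 4.31% of tested genes. The 10 estimates were all below 0, with a median of −0.52, where 56.2% of all tested genes lay below 0 with a median of −0.02. The intervals of the 10 genes all held 0, those of 9 also reached below −1.5 and those of 4 (*Fcgr1*, *C1qa*, *Mertk* and *C1qb*) above 1.5. Falls of that size for 9 members, rises of that size for 4, and no change thus remain within the error.

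These estimates moved with single libraries. Without KO library L078 the median of the 10 was −1.87, and the lowest adjusted p was 0.227 in edgeR's quasi-likelihood test. Without WT library K090 the median was −0.14, and 7 of 10 estimates were below 0. The letter that opens the animal number divides the libraries into K090 and K089, 1 of each genotype, and 4 L libraries, 2 of each, and what it stands for is not given. Between the K libraries all 10 members were lower in KO, by log2 differences from −3.79 to −0.87 (median −2.69), with no replicate. Among the L libraries the differences ran from −0.31 to 0.33 (median 0.11), with 2 of 10 lower in KO. Both sets are differences of mean log2 CPM and not edgeR estimates. For all tested genes the median absolute difference was 0.24 in K and 0.07 in L.

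**Figure D2:**
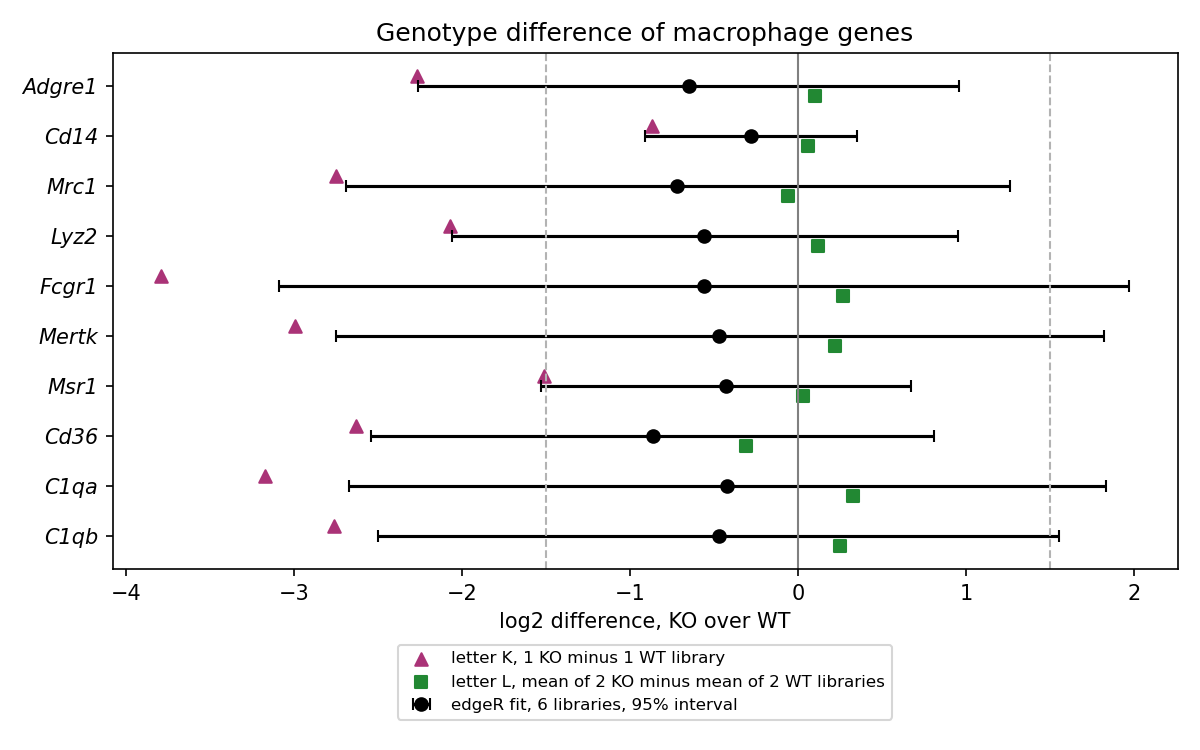
Log2 difference of KO over WT (horizontal axis) for each gene: black points are the edgeR fit on 6 libraries with its 95% confidence interval, triangles the K libraries (1 against 1) and squares the L libraries (2 against 2). Dashed lines mark −1.5 and 1.5. All 10 intervals cross 0, triangles lie between −3.79 and −0.87, and squares between −0.31 and 0.33.

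The spread between libraries of the same genotype was large for these genes. Its SD on the log2 CPM scale (prior count 2) was 1.17 at the median of the 10, against 0.17 at the median and 0.81 at the 95th percentile of all tested genes. *Fcgr1* had an SD of 1.65, above that of 99.9% of tested genes. *Mertk* (1.5), *C1qa* (1.43), *C1qb* (1.31), *Mrc1* (1.28), *Adgre1* (1.06), *Cd36* (1.06) and *Lyz2* (0.97) each exceeded at least 97.7%. *Msr1* (0.70) exceeded 91.9% and *Cd14* (0.40) exceeded 79.1%. Correlations of log2 CPM between members over the 6 libraries had a median of 0.983 across 45 pairs (0.879 to 0.999). They are descriptions over 6 libraries lying at high and low levels and sharing one scaling.

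**Figure D3:**
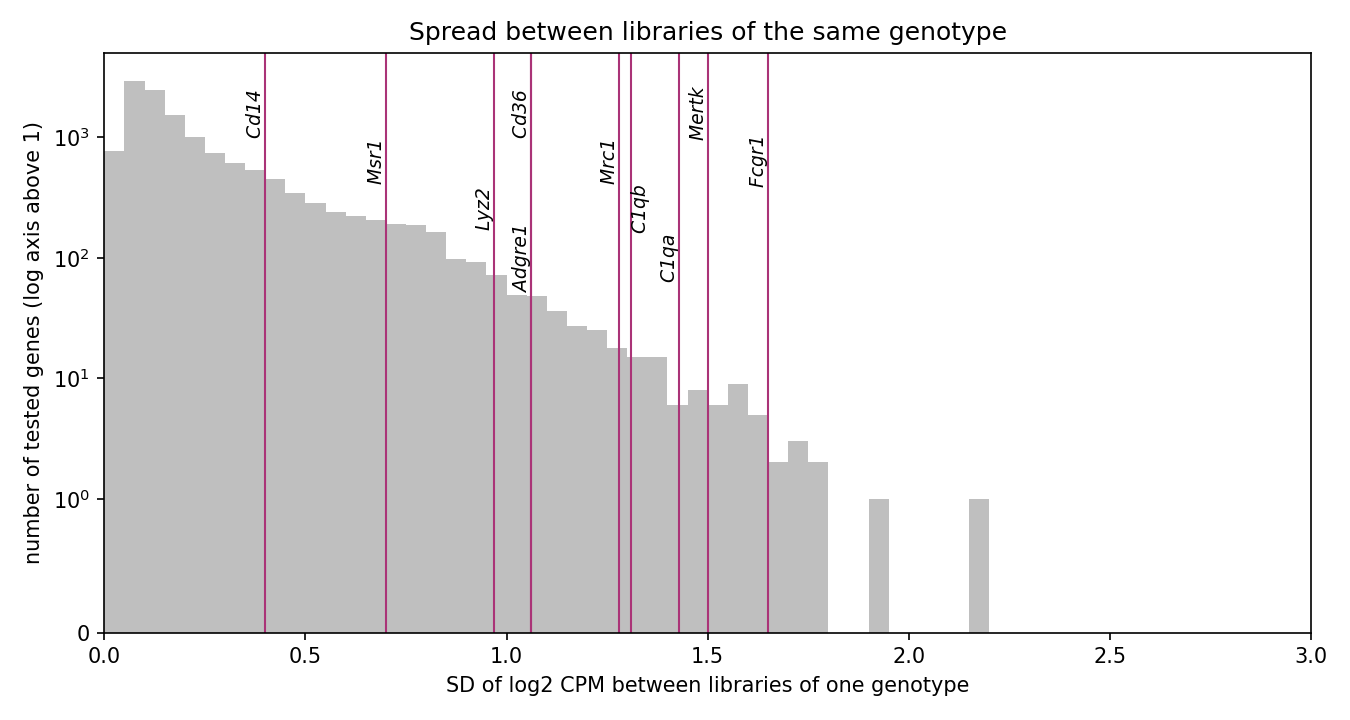
Number of tested genes (vertical axis, logarithmic above 1) by the SD of log2 CPM between libraries of one genotype (horizontal axis). Vertical lines mark the 10 members, from *Cd14* at 0.40 to *Fcgr1* at 1.65, and most lie in the thin right tail of the 13483 genes.

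Genes with the profile most like a member were named as the 3 tested genes of highest Pearson correlation over the 6 libraries. For *Adgre1* these were *Tlr7* (0.9995), *Tlr8* (0.9993) and *Lyz2* (0.9986), and for *Lyz2* they were *Alox5ap* (0.9996), *Mpeg1* (0.9995) and *Pik3cg* (0.9995). *Mrc1* was nearest to *Ms4a6c* (0.9996), *Iqgap2* (0.9995) and *C5ar1* (0.9988). *Msr1* was nearest to *Tnfaip8l2* (0.9993), *Iqgap2* (0.9990) and *Slc7a8* (0.9989). *Mertk* was nearest to *Maf* (0.9995), *Cxcr3* (0.9991) and *Sin3a* (0.9988), of which *Maf* encodes a transcription factor of macrophages. For *Fcgr1* they were *Casp8ap2* (0.9994), *Mideas* (0.9991) and *Cebpa* (0.9988), and for *Cd14* *Map4k1* (0.9987), *Gid8* (0.9984) and *3110009E18Rik* (0.9971). For *Cd36* they were *Abcd4* (0.9991), *Psd3* (0.9975) and *Cd5l* (0.9969), for *C1qa* *Gatm* (0.9988), *Ctsc* (0.9976) and *Tmem131l* (0.9972), and for *C1qb* *Scarb2* (0.9996), *Arhgap19* (0.9995) and *B4galt6* (0.9991). These values describe 6 shared libraries.

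Osteoclast and interferon response genes moved between the libraries as well. The 10 osteoclast genes summed to 38340, 50558 and 57806 scaled CPM in WT libraries K090, L080 and L082, and to 75628, 41852 and 67298 in KO libraries K089, L078 and L081. The sum was lowest in K090, L078 and L080, the libraries with the highest sums of the members. *Mmp9*, *Acp5* and *Ctsk* made up 91.3% of it, and without them it was still lowest in these 3 libraries (3859 to 4318 scaled CPM, against 5054 to 6015). L082, K089 and L081 were the 3 highest libraries for 8 of the 10 genes, but not for *Calcr* and *Nfatc1*. The span was 1.97-fold for osteoclast genes against 4.34-fold for the members, and the ratio of *Adgre1* to *Ctsk*, the osteoclast protease cathepsin K, ran from 0.00339 (K089) to 0.0394 (K090). All 10 osteoclast estimates lay above 0 in KO (median 0.28), and 0 were called.
The 8 interferon response genes (*Isg15*, *Ifit1*, *Mx1* and others) summed to 127, 64.2 and 15.5 scaled CPM in WT and 9.98, 75.1 and 22.3 in KO, which set K090, L080 and L078 high again. Genes of dividing cells summed to 766, 533 and 551 in WT and 360, 731 and 447 in KO. The part of interferon or of dividing cells in the members' levels was not tested.

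**Figure D4:**
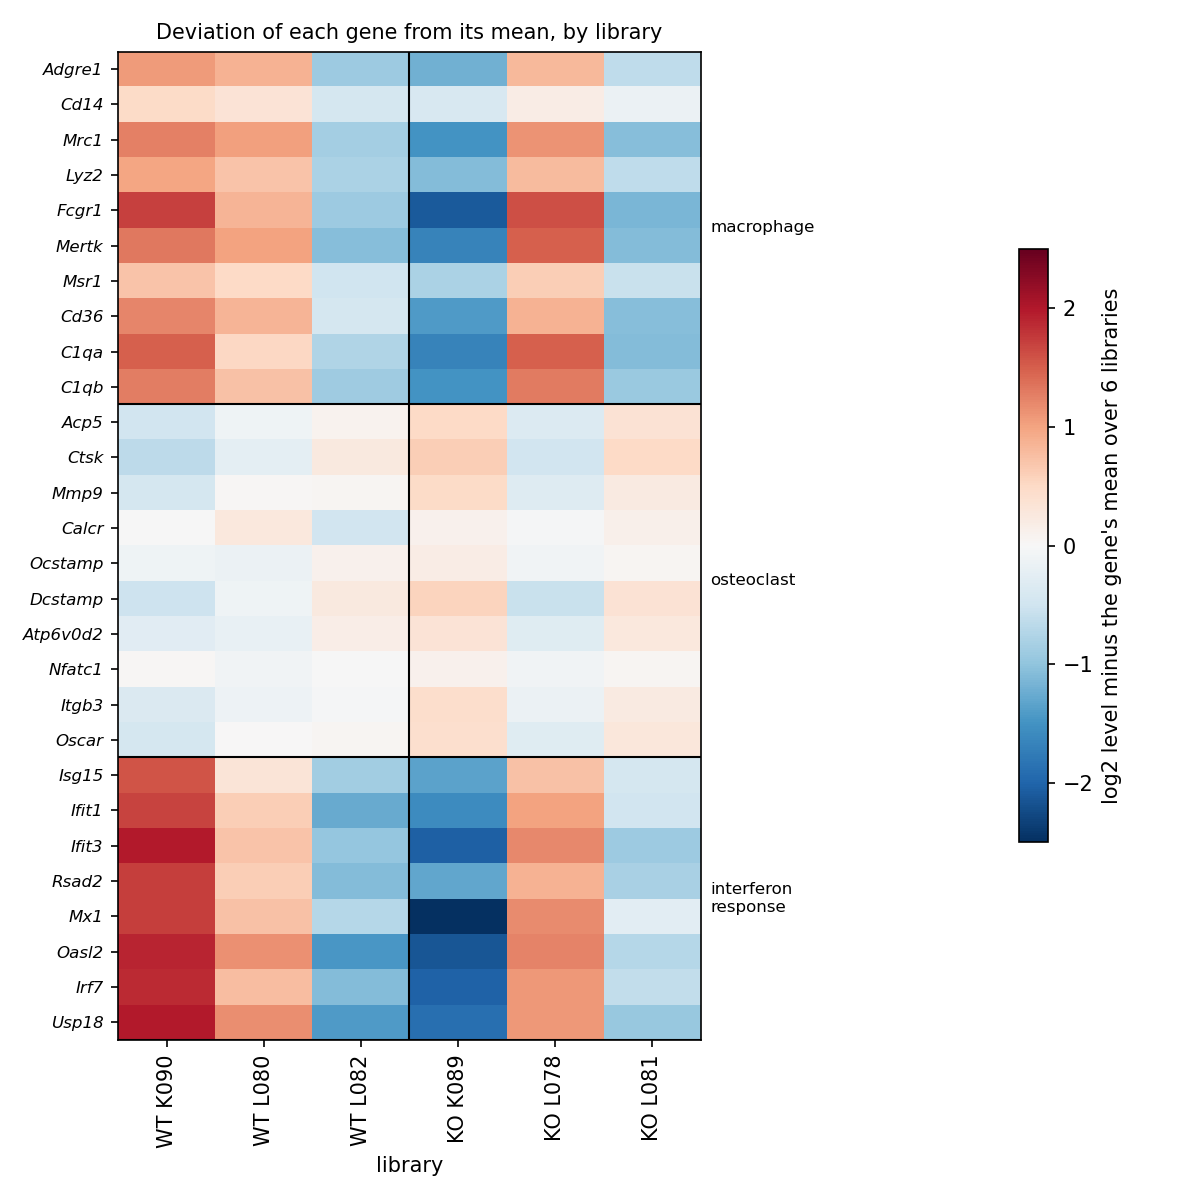
Log2 level of each gene minus its mean over the 6 libraries (colour, red above and blue below), for the 10 macrophage genes, 10 osteoclast genes and 8 interferon response genes (rows) in each library (columns). Macrophage and interferon genes are red in K090, L080 and L078, and the osteoclast genes are red in K089 and L081 to different degrees.

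A wider list of 66 macrophage and uptake genes was compared, of which 64 were listed and 56 tested. Of these, 0 were called in either direction (0.00742% of all tested genes), with 17 estimates above 0 and 39 below (median −0.19). Groups did not overlap for 1 of the 56, against 4.31% of all tested genes. That gene was *Colec12*, a scavenger receptor, with means of 40 ± 3.66 (WT) and 44.7 ± 1.49 (KO) scaled CPM (SD, n = 3 each). Its adjusted p by the edgeR test was 0.969. K090, L080 and L078 were the 3 highest libraries for 34 of the 56 genes, and L082, K089 and L081 for 8, beside 22.6% and 20.8% of all tested genes.
The 15 tested lineage genes spanned from 1.22-fold to 16.2-fold over the 6 libraries. *Csf1r*, the receptor for M-CSF, spanned 1.22-fold, *Spi1*, which encodes PU.1, 1.32-fold, *Cd68* 1.55-fold and *Lgals3* 1.96-fold. *Spi1*, *Cd68* and *Lgals3* ran opposite to the members, highest in K089, L081 and L082. *Itgam*, an integrin of myeloid cells (1.81-fold), and *Trem2*, a lipid receptor of macrophages (3.84-fold), were highest in K090, L080 and L078. The span of *Itgb2*, which pairs with *Itgam*, was 1.25-fold. *Csf1r* had means of 1831 ± 66.5 (WT) and 1930 ± 190 (KO) scaled CPM (SD, n = 3 each). *Csf1r*, *Spi1*, *Itgam* and *Trem2* were picked out after their values were seen. The ratio of *Adgre1* to *Csf1r* ranged from 0.0307 (K089) to 0.177 (K090).

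By role, the 15 tested lineage genes had 7 estimates above 0 and 8 below in KO. *Lgals3*, a lectin and the most abundant of them, had means of 1979 ± 338 (WT) and 2527 ± 849 (KO) scaled CPM (SD, n = 3 each), while *Siglec1*, a sialic acid receptor of macrophages, had the largest estimate, −0.83 (standard error 1.09). All 3 Fc receptors had estimates below 0, the largest for *Fcgr3* (−0.80, standard error 0.74). Among 11 tested genes for uptake of dying cells, 4 were above 0 and 7 below. *Lrp1*, the most abundant, had an estimate of −0.25 (standard error 0.20), and *Stab1*, the largest, −0.67 (standard error 0.77).
Scavenger receptors had 1 above and 6 below, with *Scarb2*, which carries an enzyme to lysosomes, at −0.25 (standard error 0.35). For C-type lectins it was 1 and 6. *Clec12a*, the most abundant of these, had an estimate of 0.26 (standard error 0.13) and *Clec7a*, the receptor for fungal glucan, −0.71 (standard error 0.47). Complement genes had 3 above and 7 below, led in size by *C3ar1*, the receptor for C3a, at −0.53 (standard error 0.47). *Tlr4* was below and its partner *Ly96* above, and *Lyz1* had −0.76 (standard error 0.64).

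**Figure D5:**
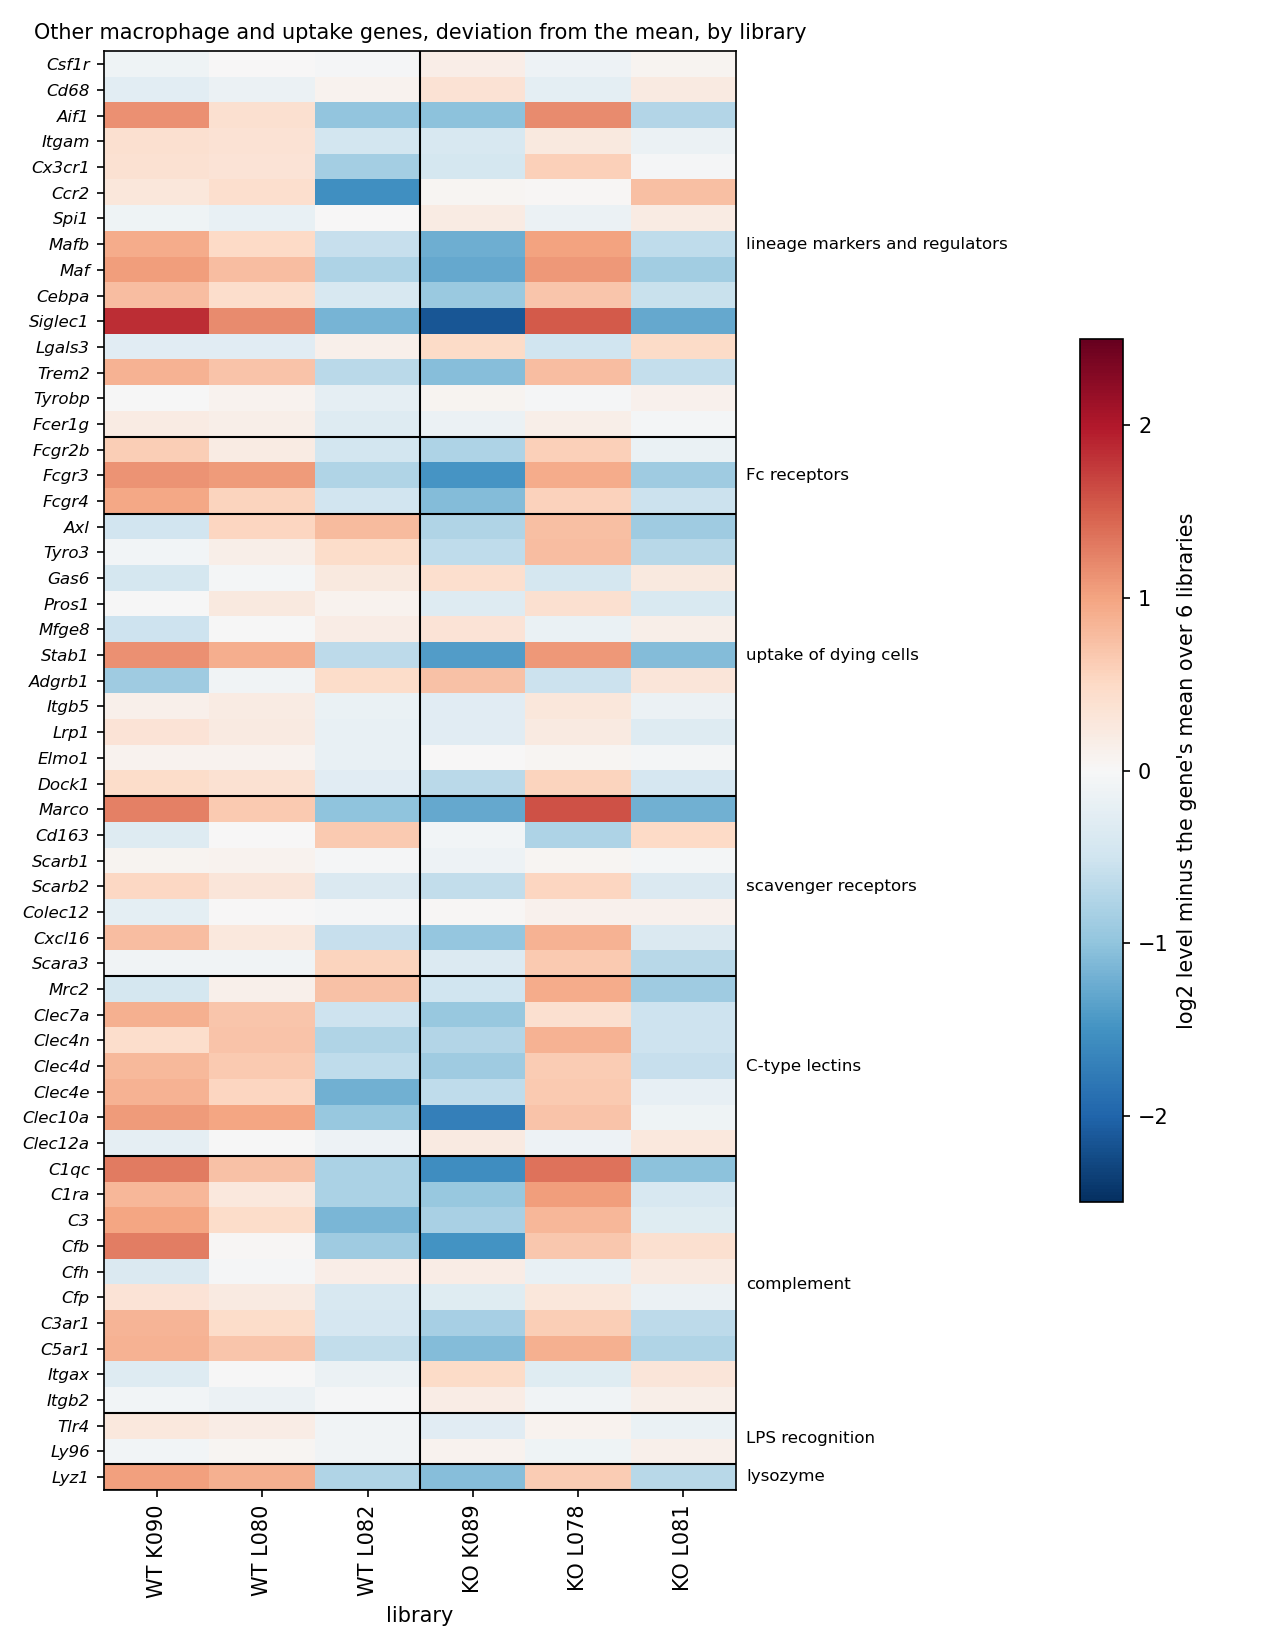
Log2 level minus the gene's mean over 6 libraries (colour, red above and blue below) for the 56 tested genes of the wider list, grouped by role (rows), in each library (columns). Most rows follow K090, L080 and L078, while *Csf1r* and *Itgb2* stay pale and *Axl*, *Tyro3* and *Mrc2* are red in L078, L082 and L080.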

How the data were processed

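RNAseq libraries, 3 WT and 3 *Slc37a2* KO, were read on a NovaSeq instrument per the paper's methods. The submitters' processing notes name bcl2fastq 2.20.0.422 and build mm10. The authors deposited whole-number counts per gene, not normalised, for 22601 genes. Aligner, counting tool and annotation: not given in the sources used here. Log fold change, p-value and related columns of the authors' edgeR 3.30.3 comparison, and the list of the first 1000 genes, were not used. Library columns were assigned by the genotype in their heading, with 0 columns of other samples.

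The deposited counts were fitted by edgeR 4.0.16 in R 4.3.3 (filterByExpr defaults, TMM, glmQLFit, glmQLFTest, genotype as the one term, Benjamini-Hochberg over 13483 genes). DESeq2 1.42.0 was used as an alternative. The fits were tested on simulated counts in which genes were independent and shared one spread. The members move together and vary more than most genes, so that simulation does not show how the fits perform for them. Figures were drawn with Python 3.11.15. The 10 genes, the wider list, the marker lists and the tests were chosen with earlier results of these data known. Named were the members and, in each role of the wider list, the most abundant gene, the gene of largest estimate, any gene whose groups did not overlap, and close relatives or partners of members (*Lyz1*, *C1qc*, *Axl*, *Tyro3*, *Fcgr2b*, *Fcgr3*, *Fcgr4*, *Mrc2*, *Cd68* and *Marco*), with the 3 genes most correlated with each member. P-values measure only the spread between these libraries, since nothing beyond the animal numbers says how cultures were kept apart. Scaling by other methods, other filters and tests, and each library left out were tried.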

Additional observations from a re-analysis of the deposited data

How the results depend on the processing

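The log2 fold change of *Slc37a2* ranged from −5.83 to −5.80 under the other scalings, filters and tests, from −5.94 to −5.69 when 1 library was dropped, and was −6.06 in the L libraries alone. It was called in all. The number of genes called was 1, and 2 (*Slc37a2* and *En2*) without the filter, in the likelihood ratio test and in DESeq2's Wald test. It was 1 with each library left out. The number of members called, and of genes of the wider list, was 0 under each alternative. The median of the members ran from −0.59 to −0.49 under other scalings, filters and tests, and when 1 library was dropped it ran from −1.87 (L078 dropped) to −0.14 (K090 dropped). Without L078, 9 of 10 members and 29 of 56 genes of the wider list had an unadjusted p below 0.05 (quasi-likelihood test of edgeR, adjusted p of the members 0.227 to 0.376). The share of all tested genes below that p was not counted in this fit. These counts can therefore not be read as particular to the members or the wider list.

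Estimates of 3 members changed sign with a library left out: *C1qa* (−2.04 without L078 to 0.26 without K090, and 0.04 without K089), *C1qb* (−1.81 to 0.00) and *Fcgr1* (−2.51 to 0.13). The others stayed below 0, from −1.46 to −0.29 (*Adgre1*), −0.49 to −0.10 (*Cd14*), −1.93 to −0.49 (*Cd36*), −1.32 to −0.22 (*Lyz2*), −2.10 to −0.01 (*Mertk*), −2.00 to −0.30 (*Mrc1*) and −0.99 to −0.17 (*Msr1*). With the L libraries alone, an alternative added after seeing the data, 9 members were above 0: *Adgre1* 0.03, *C1qa* 0.71, *C1qb* 0.42, *Cd14* 0.02, *Fcgr1* 0.62, *Lyz2* 0.10, *Mertk* 0.40, *Mrc1* 0.05 and *Msr1* 0.06, and *Cd36* was at −0.15. The cause was not tested. A block for the letter called 1 gene and 0 members. No paired analysis was possible because the columns carry no replicate number.

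The lowest count of a member in any library was 16 for *Fcgr1* and 97 or more for the others.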
